A study of Arabidopsis thaliana with 6 samples.

Results

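The genes described here are 7 loci that mark or carry out the differentiation of sieve elements, the conducting cells of the phloem, and are grouped around the transcription factor APL. They were chosen by locus identifier, with earlier results of these data known, and all 7 were found among the 32678 genes of the deposited count table. They are APL (AT1G79430), NAC045 (AT3G03200), NAC086 (AT5G17260), NEN4 (AT4G39810), SEOR1 (AT3G01680), SEOR2, also called SEOa (AT3G01670), and CHER1 (AT3G15380). Reads per gene were counted in bulk RNA sequencing of hand-cut root meristems of Arabidopsis thaliana seedlings aged 5 days, raised at 23 °C in long days on agar with sucrose at 1%. There were 6 libraries. Wild type of the accession Col-0, widely used in laboratories, was the label of 3, and the other 3 were labelled papl1-1 papl2, also named cog1-6 cdf4, a double mutant of genes for Dof zinc finger transcription factors. In the labels the replicates of each genotype were the best by RNA quality, and nothing says whether they came from separate plates or days, so p-values measure the spread between these libraries. The comparison asks whether the genotypes differed in transcripts of this late phloem programme.

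A sieve element loses its nucleus and much of its cell content while it stays alive, and its end walls become perforated sieve plates. APL is a transcription factor of the MYB coiled-coil type that is required for phloem identity, and the paired factors NAC045 and NAC086 act below it. These NAC factors switch on NEN genes, which encode exonuclease-domain proteins linked to the breakdown of the nucleus. SEOR1 and SEOR2 encode the proteins of the filaments that fill mature sieve elements, and CHER1 encodes a choline transporter-like protein needed for normal sieve plates and pores. That the other genes of the group lie downstream of APL comes from their description and was not measured, since no library of an apl mutant was analysed here.

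The 7 genes lie on 4 chromosomes of the TAIR10.1 assembly, in the RefSeq annotation. APL is on chromosome 1 (chr1:29877228-29879279, minus strand), NEN4 on chromosome 4 (chr4:18474481-18475804, minus strand) and NAC086 on chromosome 5 (chr5:5675184-5678175, minus strand). Chromosome 3 carries NAC045 (chr3:734892-738629, minus strand), SEOR2 (chr3:247192-250472, plus strand), SEOR1 (chr3:251868-255513, plus strand) and CHER1 (chr3:5193203-5196591, plus strand), with SEOR2 and SEOR1 side by side. All are protein-coding genes, with exonic lengths from 964 bases for NEN4 to 2791 bases for NAC045. NAC045 overlaps the glutathione S-transferase gene GSTF11 (AT3G03190) on the opposite strand over 934 exonic bases, and CHER1 overlaps the gene SDE5 (AT3G15390) over 70 bases. The sources used here do not say whether reads were counted by strand, so reads from these overlaps cannot be assigned. GSTF11 had 0 to 7 counts per library, with the 7 in replicate 1 labelled papl1 papl2, and SDE5 had 205 to 240.

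NAC045 and NAC086 are sister genes, as are SEOR1 and SEOR2, so reads of like sequence could be counted for the wrong gene. For each pair a stretch around the longest identical run is shown, which need not be where the pair is most alike. Each stretch is the longest identical run of the coding sequences with up to 15 bases on either side, and capitals mark the bases that differ between the pair. The NAC stretch covers bases 415 to 467 of both coding sequences (chr3:737431-737576 and chr5:5676573-5676727, both minus strand, joined across an intron). The SEOR stretch covers bases 1781 to 1822 of SEOR1 (chr3:254710-254751, plus strand) and 2111 to 2152 of SEOR2 (chr3:249831-249872, plus strand).
NAC045: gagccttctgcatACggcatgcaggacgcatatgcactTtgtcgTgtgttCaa
NAC086: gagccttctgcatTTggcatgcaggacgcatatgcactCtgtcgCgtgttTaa
SEOR1: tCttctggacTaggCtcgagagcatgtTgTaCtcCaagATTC
SEOR2: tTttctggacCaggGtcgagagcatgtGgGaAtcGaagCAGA
The longest identical run was 23 bases in the NAC pair and 12 bases in the SEOR pair. Over the aligned coding positions, identity was 77.6% for the NAC pair and 63.7% for the SEOR pair. No stretch of 50 bases in the transcripts of the 7 genes was found anywhere else in the assembly, so an exact match of that length separates each gene from its relatives.

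The libraries held 17849704 to 20914576 counts. Values are given as CPM, the count of a gene scaled to a fixed library size, scaled between libraries by trimmed mean of M-values (TMM), and 3 counts, used as the detection floor, equalled 0.143 to 0.168 CPM. The floors and the exact intervals of shares and of the SEOR1 ratio cover counting error only, while the intervals of log2 fold changes also include the spread between libraries. No library was a copy of another of its genotype, since each pair had a chi-square statistic 4.24 to 16.3 times its degrees of freedom. The pairs that held replicate 3 labelled papl1 papl2 were at 16.3 and 9.69 times, and the others at 4.24 to 5.45 times. Transcripts of the mutated loci, taken from general knowledge to be AT1G29160 (COG1) and AT2G34140 (CDF4), had log2 fold changes of 0.76 (edgeR adjusted p = 0.0137) and 0.57 (edgeR adjusted p = 0.0952) in papl1 papl2 against wild type, so that no loss of transcript marked the mutant label at either locus. The libraries are therefore named by their labels, and every direction given here rests on those labels. Markers of the meristem and stem cell niche were abundant, with a summed level of 165 to 210 CPM over 5 genes. Among them KNOLLE, which encodes a syntaxin of dividing cells, was at 70.7 to 98.8 CPM.

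Replicate 3 labelled papl1 papl2 had the lowest summed levels of root hair, xylem and companion cell markers, although not every marker followed. The summed level of 6 root hair markers was 0.559 CPM there, 13.9 and 9.76 CPM in replicates 1 and 2 of that label and 4.67 to 6.05 CPM in the libraries labelled wild type. COBL9 had 3 counts in that library and 48 to 165 in the others. EXPA7, EXPA18, PRP3 and MOP10 were at 0 counts in it, but EXPA7 and EXPA18 were also at 0, and PRP3 and MOP10 at 1 count, in replicate 3 labelled wild type. LRX1 had 7 counts in replicate 3 labelled papl1 papl2, 20 and 11 in replicates 1 and 2 of that label and 3 to 17 in wild type. The summed level of 6 xylem markers was 12.6 CPM in replicate 3 labelled papl1 papl2, 27.1 and 19.8 CPM in replicates 1 and 2 of that label and 17.1 to 20.2 CPM in wild type. CESA4, CESA8, XCP1 and XCP2 were lowest in replicate 3 labelled papl1 papl2. VND7 (0.559 CPM there) lay above all wild-type libraries, and CESA7 (4.75 CPM) lay within the wild-type range. Companion cell markers, 8 genes, summed to 14.5, 13.1 and 8.88 CPM in replicates 1 to 3 labelled papl1 papl2 and to 9.64 to 10.5 CPM in wild type, with SWEET11 and SWEET12 at 0 counts throughout. Of the companion cell markers, the sucrose transporter gene SUC2 had 3 to 28 counts, with the 28 in replicate 3 labelled papl1 papl2. It was called higher in papl1 papl2 (log2 fold change 2.09, edgeR adjusted p = 0.0394). That call was lost without replicate 1, 2 or 3 labelled wild type (edgeR adjusted p = 0.183, 0.126 and 0.101) and without replicate 2 labelled papl1 papl2 (edgeR adjusted p = 0.124), and with limma-voom (adjusted p = 0.0528) and the replicate block (edgeR adjusted p = 0.0652). It held without replicate 1 or 3 labelled papl1 papl2 (edgeR adjusted p = 0.0483 and 0.0444), with both other scalings, with no filter and with DESeq2, and the log2 fold change of SUC2 was 1.81 to 2.46 in all of these fits. Root cap markers, 5 genes, summed to 60.8, 66.0 and 79.4 CPM in replicates 1 to 3 labelled papl1 papl2 and to 76.5 to 81.7 CPM in wild type. The meristem markers summed to 165, 182 and 210 CPM in these replicates, highest in replicate 3, and to 167 to 175 CPM in wild type. For all 5 marker lists the ranges of the genotypes overlapped. In bulk tissue, fewer cells of a type and less RNA per cell cannot be told apart. The part of these cell types in the values of the 7 genes was not tested.

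**Figure D1:**
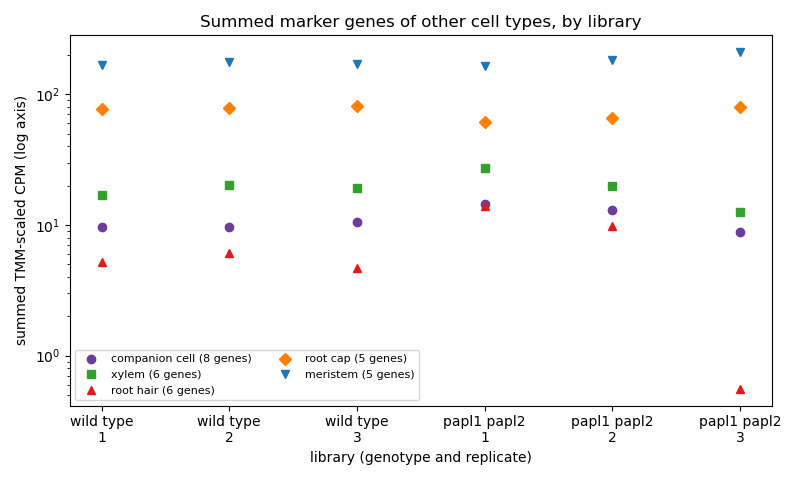
Summed TMM-scaled CPM (log axis) of the marker genes of 5 cell types in each of the 6 libraries, 1 point per list and library. Root hair markers sum to 0.559 CPM in replicate 3 labelled papl1 papl2, and meristem markers lie between 165 and 210 CPM in all libraries.

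The 7 genes covered a wide range of levels in the meristem, from the sieve plate gene at the top to the filament genes near the detection floor. Compared per kilobase of exon over all 6 libraries, CHER1 was highest at 13.6 ± 0.770 CPM per kilobase (SD, n = 6), followed by APL at 3.40 ± 0.446. Below them came NEN4 at 1.27 ± 0.310, NAC086 at 0.878 ± 0.161 and NAC045 at 0.567 ± 0.117 CPM per kilobase. The filament genes were lowest, with SEOR2 at 0.230 ± 0.0599 and SEOR1 at 0.0707 ± 0.0510 CPM per kilobase. The levels of CHER1 and APL did not overlap each other or any lower gene. The ranges of NEN4 and NAC086 over the 6 libraries overlapped, as did those of NAC086 and NAC045. Within libraries, NAC086 lay above NAC045 per exonic kilobase in 6 of 6. SEOR2 lay below NAC045 and above SEOR1 with no overlap. NEN4 lay above NAC086 in 3 of 3 libraries labelled wild type and in 1 of 3 labelled papl1 papl2. The gap within the NAC pair depended on the length used, since much of the exonic length of NAC045 is untranslated. Per kilobase of coding sequence NAC086 was at 1.12 and NAC045 at 1.10 CPM. The exonic length of NAC045 also holds the 934 bases that overlap GSTF11, where reads cannot be assigned. The part of this overlap in the order of the pair was not tested.

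**Figure D2:**
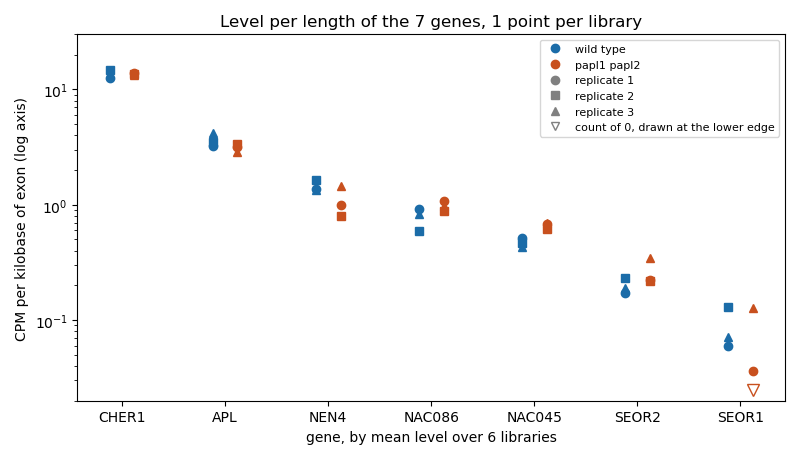
CPM per kilobase of exon (log axis) of the 7 genes, ordered by their mean, with 1 point per library (blue wild type, orange papl1 papl2). Levels run from about 13.6 for CHER1 to 0.0707 for SEOR1, and the points of NEN4, NAC086 and NAC045 overlap between neighbours.

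Between the genotypes, none of the 7 genes passed the test. Of the 7, 6 had enough counts to be tested and SEOR1 did not. In the edgeR quasi-likelihood test adjusted over all 17720 tested genes, 0 of the 6 were called at an adjusted p under 0.05, where 2.76% of all tested genes were called. Of all tested genes 2.23% were called higher in papl1 papl2 and 0.525% lower, and of the 6 genes 0 in either direction. At an unadjusted p under 0.05, 1 of the 6 passed in edgeR (NAC045), 1 in limma-voom and 0 in DESeq2. Of all 17720 tested genes 2823 (15.9%) passed in edgeR, 2783 in limma-voom and 2104 in DESeq2. In edgeR with RLE factors, upper-quartile factors or the replicate block 0 of the 6 passed, where 2836, 2788 and 2197 of all genes did. No member was called by limma-voom or DESeq2 after adjustment, where 432 and 744 of all 17720 tested genes were called. Estimates were higher in papl1 papl2 for 4 genes and lower for 2, with a median log2 fold change of 0.16, against a median of 0.00 over all tested genes. The number called over all genes, 489, was 144, 276 and 155 without replicates 1, 2 and 3 labelled wild type, 173 without replicate 2 labelled papl1 papl2 and 1164 without replicate 3 of that label. In each of these fits 0 of the 7 genes were called.

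**Figure D3:**
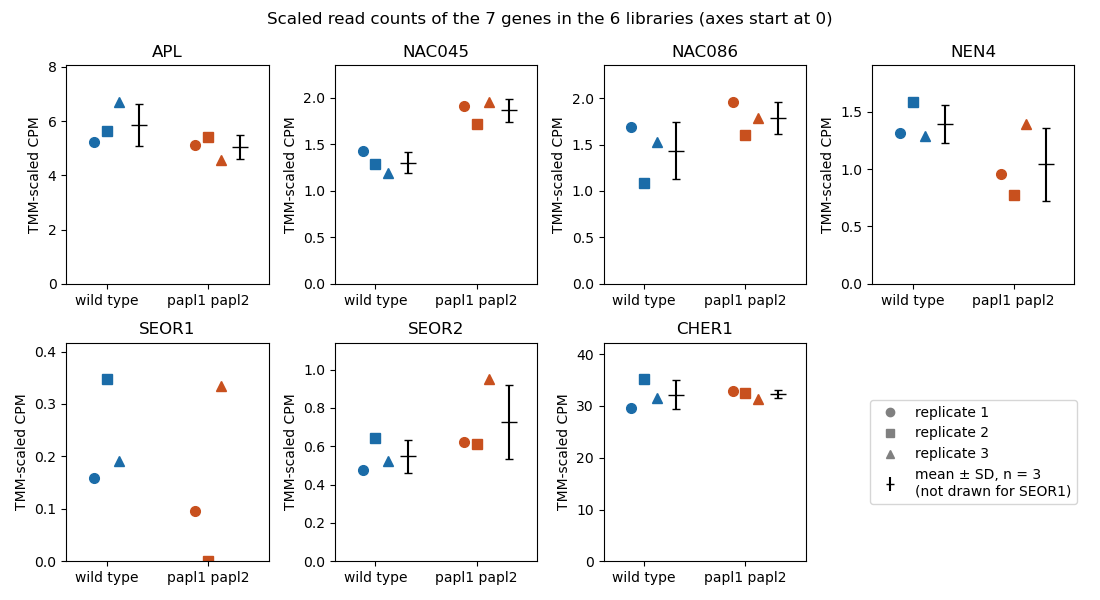
TMM-scaled CPM of each of the 7 genes by library, with linear axes from 0, marker shapes for replicates 1 to 3, and bars for mean ± SD (n = 3; not drawn for SEOR1). NAC045 is the only gene of the 7 in which all papl1 papl2 points (1.72 to 1.96 CPM) lie above all wild-type points (1.19 to 1.42 CPM).

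APL, the regulator at the head of the group, was at 5.22, 5.65 and 6.72 CPM in wild-type replicates 1 to 3 and at 5.12, 5.43 and 4.58 CPM in papl1 papl2. The groups overlapped, although the highest library was a wild-type one and the lowest was replicate 3 labelled papl1 papl2. Means were 5.86 ± 0.771 and 5.04 ± 0.431 CPM (SD, n = 3 each), from 82 to 141 counts per library. The log2 fold change was -0.22 (SE 0.15, 95% interval -0.56 to 0.13), with an edgeR adjusted p of 0.550. In linear terms the interval runs from 0.677 to 1.09 times the wild-type level.

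NAC045 was at 1.42, 1.29 and 1.19 CPM in wild type and at 1.91, 1.72 and 1.96 CPM in papl1 papl2, from 25 to 27 and 31 to 40 counts. All libraries labelled papl1 papl2 lay above all labelled wild type, and among all tested genes 11.7% were separated in that direction. Means were 1.30 ± 0.116 and 1.86 ± 0.126 CPM (SD, n = 3 each). The log2 fold change was 0.52 (SE 0.23, 95% interval 0.00 to 1.04), with an unadjusted p of 0.0499 and an edgeR adjusted p of 0.314, so the difference did not pass. The coefficient of variation between replicates was 8.95% and 6.78%, below the 19.6% and 16.8% that counting error alone gives at these counts. Reads from GSTF11, which overlaps NAC045, cannot be told apart from its own without strand. GSTF11 itself had 7 counts at most, in replicate 1 labelled papl1 papl2, where NAC045 had its highest count of 40. How reads of the overlap were counted is not known, so the GSTF11 count does not bound their part in NAC045.

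NAC086, the sister of NAC045, was at 1.69, 1.09 and 1.52 CPM in wild type and at 1.96, 1.61 and 1.79 CPM in papl1 papl2. The groups overlapped, with replicate 2 labelled wild type the lowest of the 6. Its log2 fold change was 0.32 (SE 0.26, 95% interval -0.26 to 0.90), with an edgeR adjusted p of 0.609. Because the pair is redundant in the plant, its balance was also compared. NAC045 held 45.8%, 54.2% and 43.9% of the counts of the pair in wild-type replicates 1 to 3 and 49.4%, 51.7% and 52.2% in papl1 papl2. Summed over libraries the share was 47.6% (exact Clopper-Pearson 95% interval 39.7% to 55.5%, 164 counts) in wild type and 51.0% (44.0% to 57.9%, 208 counts) in papl1 papl2. These intervals pool the libraries of a genotype and cover counting error only. They overlapped, and a shift between the sister genes was not tested.

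NEN4, the nuclease gene of the group, was at 1.32, 1.59 and 1.29 CPM in wild type and at 0.957, 0.776 and 1.40 CPM in papl1 papl2, from 14 to 32 counts. Replicates 1 and 2 labelled papl1 papl2 lay below all wild-type libraries, and replicate 3 lay among them. Means were 1.40 ± 0.165 and 1.04 ± 0.319 CPM (SD, n = 3 each). The log2 fold change was -0.42 (SE 0.30, 95% interval -1.10 to 0.25), with an edgeR adjusted p of 0.553. Without replicate 3 labelled papl1 papl2, the library with the lowest summed root hair markers, it was -0.68 with an edgeR adjusted p of 0.276, and without replicate 2 of that label it was -0.26 with an edgeR adjusted p of 0.829. NEN4 was the lowest of the 4 NEN genes per kilobase and made up 13.0%, 13.7% and 11.8% of their summed level per kilobase in wild type and 9.61%, 7.02% and 12.3% in papl1 papl2. The shares of the genotypes overlapped through replicate 3.

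The filament genes lay near the detection floor in this tissue. SEOR2 was at 0.474, 0.645 and 0.524 CPM in wild type and at 0.622, 0.610 and 0.950 CPM in papl1 papl2, from 9 to 17 counts per library. The groups overlapped, and the highest library was replicate 3 labelled papl1 papl2. Its log2 fold change was 0.40 (SE 0.35, 95% interval -0.40 to 1.20), with an edgeR adjusted p of 0.656, and it was 0.16 without replicate 3 labelled papl1 papl2. SEOR1 had 3, 7 and 4 counts in wild type and 2, 0 and 6 counts in papl1 papl2, and 3 of the 6 libraries were at or under the floor of 3 counts. The 0 in replicate 2 labelled papl1 papl2 allows a level of up to 0.166 CPM. Summed counts were 14 and 8, a ratio of papl1 papl2 to wild type of 0.605 with an exact 95% counting interval of 0.220 to 1.54, so a difference was not detectable at this depth. SEOR2 held 70.2% of the counts of the pair in wild type (exact Clopper-Pearson 95% interval 55.1% to 82.7%, 47 counts) and 83.7% in papl1 papl2 (70.3% to 92.7%, 49 counts), with overlapping intervals. A shift within this pair was not tested.

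CHER1 was the most precisely measured gene of the group, with 562 to 709 counts per library. It was at 29.7, 35.2 and 31.6 CPM in wild type and at 32.9, 32.4 and 31.4 CPM in papl1 papl2. The papl1 papl2 values all lay within the wild-type range. Means were 32.2 ± 2.78 and 32.2 ± 0.778 CPM (SD, n = 3 each), with a log2 fold change of 0.00 (SE 0.08, 95% interval -0.17 to 0.18) and an edgeR adjusted p of 0.986. The interval bounds a difference at 0.890 to 1.13 times the wild-type level. The sign of so small an estimate changed with the scaling and with the libraries included.

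**Figure D4:**
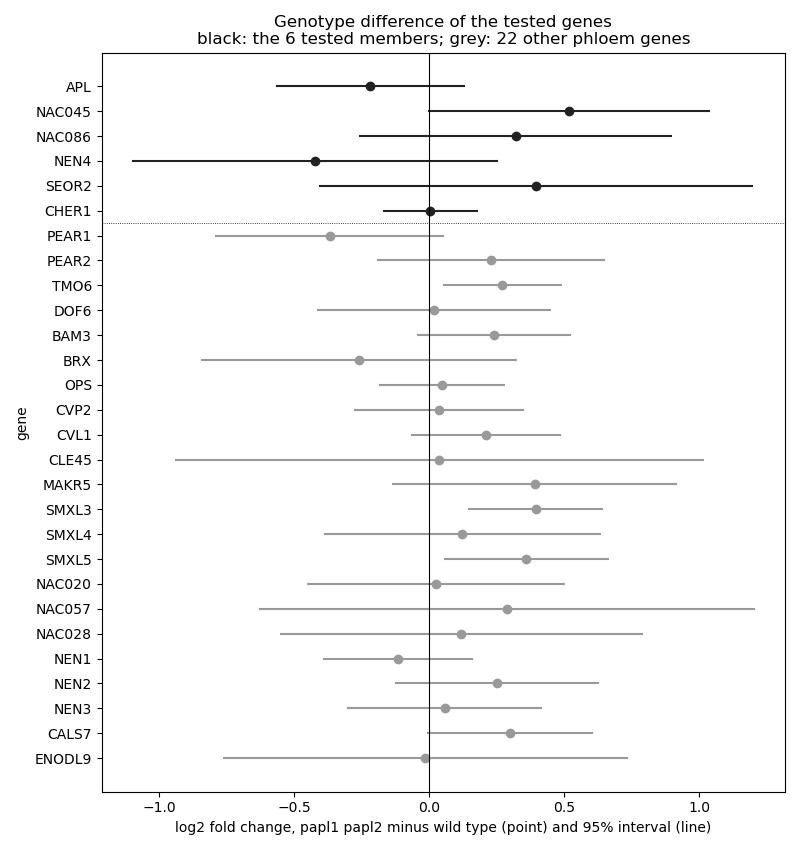
Log2 fold change (papl1 papl2 minus wild type) with its 95% interval for the 6 tested genes of the group (black) and 22 other phloem genes (grey). The interval of CHER1 is the narrowest of the 6 (-0.17 to 0.18) and that of SEOR2 the widest (-0.40 to 1.20), and the interval of NAC045 starts at 0.00.

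The rest of the phloem programme was described with a list of 25 other genes, of which 22 were tested. None of the 22 was called in the edgeR test, in DESeq2 or in limma-voom. Of all 17720 tested genes 489 (2.76%), 744 and 432 were called in these tests, so 0 of 22 lies near that share. Among the 22, 18 had estimates above 0 and 4 below, and the median log2 fold change was 0.12. Of all tested genes 9009 had estimates above 0 and 8711 below. At an unadjusted p under 0.05, where 15.9% of all tested genes passed, 3 of the 22 passed in edgeR and are named for that reason, after their values were seen: SMXL3 (log2 fold change 0.40, edgeR adjusted p = 0.107), TMO6 (0.27, edgeR adjusted p = 0.210) and SMXL5 (0.36, edgeR adjusted p = 0.233). In 4 genes all papl1 papl2 libraries lay above wild type and in 1 gene below, where 11.7% and 9.80% of all tested genes were so separated. RTM1, a phloem gene that restricts virus movement, and SEOc, the third gene of the filament family, had 0 counts in every library, which allows at most 0.143 to 0.168 CPM. HCA2, a Dof factor of vascular development, had 3 to 10 counts and was not tested.

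Among the early Dof factors, which promote phloem cell divisions, TMO6 was the most abundant per kilobase, at 9.48 ± 0.870 CPM per kilobase in wild type and 11.4 ± 0.673 in papl1 papl2 (SD, n = 3 each). Among the genes of protophloem signalling it was OPS, which encodes a polar membrane protein, at 4.49 ± 0.316 and 4.64 ± 0.345 CPM per kilobase, with a log2 fold change of 0.05 and an edgeR adjusted p of 0.868. Among the relatives of the 7 genes it was, averaged over the 6 libraries, NEN1, at 3.96 ± 0.349 and 3.65 ± 0.128 CPM per kilobase, with a log2 fold change of -0.12 and an edgeR adjusted p of 0.716. The other NEN genes had log2 fold changes of 0.25 (NEN2, edgeR adjusted p = 0.517) and 0.06 (NEN3, edgeR adjusted p = 0.904), and NEN3 was at 3.63 ± 0.376 and 3.79 ± 0.664 CPM per kilobase, above NEN1 in papl1 papl2. NAC020, NAC057 and NAC028, further NAC factors, had log2 fold changes of 0.02, 0.29 and 0.12, with edgeR adjusted p of 0.971, 0.796 and 0.890. Of the other sieve element genes, ENODL9, which encodes an early nodulin-like protein, was the most abundant per kilobase at 1.82 ± 0.735 and 1.80 ± 0.199, with a log2 fold change of -0.01 and an edgeR adjusted p of 0.989.

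For each tested gene of the group, the gene with the most similar profile over the 6 libraries was found among 7612 tested genes with a symbol, by the mean absolute difference of log2 CPM after centring each gene. For APL it was AHG2, a poly(A) ribonuclease gene, at a mean difference of 0.032 on the log2 scale. For NAC045 it was CRS1, which acts in chloroplast RNA splicing, at 0.048, and for NAC086 it was HY2, of phytochrome chromophore synthesis, at 0.059. For NEN4 it was ASY1, a meiotic chromosome axis gene, at 0.044, for SEOR2 the nicotinamidase gene NIC1 at 0.042, and for CHER1 the MDHAR gene AT3G09940 at 0.020. The profile averaged over the 6 genes was nearest to DDL (0.017), RFL1 (0.018) and DRB2 (0.022). None of these 9 genes was called in the edgeR test, where 2.76% of all tested genes were called. Their edgeR adjusted p ran from 0.0830 for CRS1 to 0.975 for MDHAR. They were picked for profiles close to those of genes not called, so this is no separate result. The median difference over the same candidates was 0.12 for CHER1 and 0.30 for NEN4, the extremes of the 6 genes. The names are a description of these 6 libraries.

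**Figure D5:**
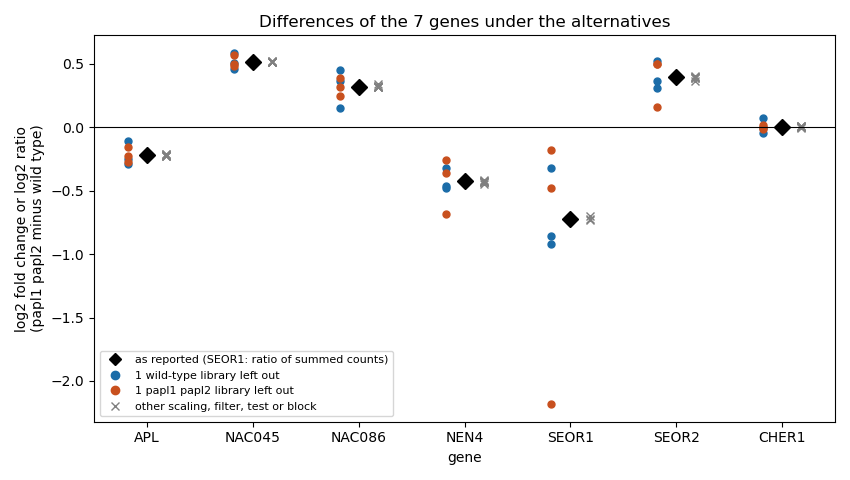
Log2 fold change of each of the 7 genes as reported (black) and with 1 library left out (blue wild type, orange papl1 papl2). Grey crosses are other scalings, filters, tests or the block. For SEOR1 the log2 ratio of summed counts is drawn, except with no filter, where it is the edgeR log2 fold change. Points of 6 genes keep to 1 side of 0, those of CHER1 lie on both sides between -0.05 and 0.07, and the lowest SEOR1 point (-2.18) leaves out replicate 3 labelled papl1 papl2.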

How the data were processed

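The authors deposited raw read counts for each gene in 6 libraries, with 1 column per library per the file headers, and all values are whole numbers. The submitters' processing notes name TopHat2, HTSeq, DESeq and DESeq2 and the build TAIR10, without versions or settings; strand use and annotation are not given in the sources used here. All columns were matched to samples by their names and the sample titles. Genotypes were compared with edgeR 4.0.16 in R 4.3.3. Low counts were removed by filterByExpr (minimum count 10, minimum total 15), libraries were scaled by TMM, and genotypes were compared by the quasi-likelihood F test on all 6 libraries, with Benjamini-Hochberg adjustment over 17720 genes and a threshold of 0.05. Standard errors are the absolute log2 fold change over the square root of F, and 95% intervals use the t distribution with the fit's degrees of freedom. Log2 CPM used a prior count of 2. The fits were tested on simulated data with the same dispersion in every library. Only genes with more counts than SEOR1 or SEOR2 were changed there, by more than any estimate of the tested members. The simulation therefore cannot show how well differences as small as those of the members are found. Alternatives used limma 3.58.1 and DESeq2 1.42.0, other scalings and filters, a replicate block and each library left out.

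Gene names, lengths and sequences came from the RefSeq annotation of TAIR10.1, to which 31912 identifiers matched. The members and the lists of other phloem genes and markers were chosen with earlier results of these data known. By the rule for named genes, all members were described, with called genes of the phloem list (there were none), the most abundant gene of each role, and the genes of nearest profile. No listed locus had an annotation that contradicted its symbol. The annotation gives no such symbol for PEAR1, PEAR2, SEOc, SAPL or the mutated loci, which rest on general knowledge.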

Additional observations from a re-analysis of the deposited data

How the results depend on the processing

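The number of the 7 genes called, and the number of the 22 tested phloem genes called, was 0 under every alternative that was run. The estimates of APL (-0.29 to -0.11) and NEN4 (-0.68 to -0.26) stayed below 0, and those of NAC045 (0.46 to 0.59), NAC086 (0.15 to 0.45) and SEOR2 (0.16 to 0.53) stayed above 0, with a lowest adjusted p of 0.276 (NEN4, without replicate 3 labelled papl1 papl2). CHER1 changed sign around 0, at -0.000197 with RLE size factors, -0.00149 with no filter on low counts and -0.000201 with DESeq2, and it was -0.0485 to 0.0699 across the fits without 1 library. The SEOR1 ratio was -2.18 to -0.18 on the log2 scale across those fits. With no filter, SEOR1 was tested and had an adjusted p of 0.769. It gave no value in limma-voom, DESeq2, the block or the stricter filter, and SEOR2 gave none in the stricter filter of 1 CPM in 3 libraries.

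Over all genes 489 were called, and 744 with DESeq2, 140 at an adjusted p under 0.01, 865 at one under 0.1 and from 144 up to 1164 when 1 library was left out. The fits without 1 library have fewer samples, and otherwise the cause was not tested. With the replicate block 259 were called. Over all tested genes, the deviations of same-numbered libraries had correlations of -0.00913, -0.0601 and -0.107. Such values cannot show that these libraries had nothing else in common. Of the root hair markers, EXPA7, EXPA18, PRP3 and MOP10 were at 0 or 1 count in replicate 3 of both genotypes. COBL9 was not, with 93 counts in replicate 3 labelled wild type and 3 in replicate 3 labelled papl1 papl2. LRX1 had 3 and 7 counts in these libraries. Whether these libraries shared a condition was not tested.

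Per kilobase of coding sequence instead of exon, levels were 5.06 for APL (3.40 per exonic kilobase), 1.10 for NAC045 (0.567), 1.12 for NAC086 (0.878), 1.59 for NEN4 (1.27) and 15.3 for CHER1 (13.6). SEOR1, SEOR2, NEN4 and the NAC genes rest on 0 to 41 counts per library. In papl1 papl2 the spread between replicates was above counting error for NEN4 (coefficient of variation 30.6% against 22.5%) and SEOR1 (120% against 61.2%). In wild type it was above counting error for CHER1 (8.66% against 3.94%), APL (13.1% against 9.21%) and NAC086 (21.5% against 18.7%). For the other genes of each genotype it lay below counting error.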
